A study of Homo sapiens with 4 samples.

Results

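DICER1, the Argonaute genes and the other core genes of microRNA production were followed in PC3, an established prostate cancer line that was grown from a metastasis in bone, after transfection with an siRNA against COUP-TFII or with a control siRNA. Members were 10 named genes (DROSHA, DGCR8, XPO5, DICER1, TARBP2, AGO1, AGO2, AGO3, AGO4 and TNRC6A), read from the probe sets that the array's gene table assigns to that gene alone. By this rule 9 of the 10 genes were measured, on 31 probe sets, out of 19775 genes and 54613 probe sets other than controls. All 4 probe sets for DGCR8, the RNA-binding partner of DROSHA, are also assigned to MIR1306, a microRNA gene inside DGCR8, so DGCR8 has no value here. AGO2 kept 1 probe set, and 3 others shared with a second gene were left out.

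The COUP-TFII siRNA group and the control siRNA group held 2 arrays each. Every array came from the same cell line in serum-supplemented medium, with 40 nM of siRNA duplex and RNA taken at 48 h. Cells of both groups therefore carried transfected siRNA, and no untransfected cells were analysed here. COUP-TFII is an orphan nuclear receptor, and the question was which transcripts change when it is depleted. The transcript targeted by the siRNA was not analysed here, so these values hold no check of the depletion. It is not stated that the 2 arrays of a group come from separate cultures, and the p-values then describe array-to-array spread that may be technical.

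MicroRNA genes are transcribed as long primary transcripts, and the nuclear enzyme DROSHA, together with DGCR8, cuts out a hairpin. Exportin-5, encoded by XPO5, carries the hairpin to the cytoplasm, where DICER1 and its partner TARBP2 trim it to a short duplex. A strand of that duplex is loaded into an Argonaute protein (AGO1 to AGO4), which recruits TNRC6 proteins and, through them, deadenylases and decapping enzymes that silence the target mRNA. Transfected siRNA duplexes are also loaded into Argonautes. AGO2 is the Argonaute known for strong target cleavage.

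The values are probe set intensities on a linear scale. Sums and differences over probe sets are compared between groups. Brightness of different probe sets is not read as relative transcript amount. Array medians lay between 31.7 and 32.9, and replicate arrays correlated at r = 0.9880 for COUP-TFII siRNA and 0.9871 for control siRNA across probe sets on the log2 scale. Arrays of different groups correlated at 0.9750 to 0.9793. The 5 epithelial markers were bright in all arrays, with a summed intensity of 31145 to 31546 in the COUP-TFII siRNA arrays and 31338 to 31713 in the control siRNA arrays, although KRT8 and KRT18 passed as higher (log2 changes of 0.16 and 0.13) and EPCAM and CDH1 as lower (−0.24 and −0.30). The 4 measured leukocyte markers summed to 66.4 to 76.7 in the COUP-TFII siRNA arrays and 65.4 to 76.2 in the control siRNA arrays. The 3 measured luminal prostate markers summed to 426.7 to 430.6 in the COUP-TFII siRNA arrays and 176.2 to 180.3 in the control siRNA arrays. Of these, TMPRSS2 had 391.2 and 392.0 with COUP-TFII siRNA, against 132.1 and 156.5 with control siRNA, and KLK3 and KLK2 were at or below 25.9 in every array. The 5 fibroblast markers summed to 1090 to 1109 with COUP-TFII siRNA and 687.3 to 790.7 with control siRNA. COL1A1 passed as higher (log2 change of 0.73), while COL1A2, DCN, LUM and PDGFRA had log2 changes from −0.35 to −0.03 and did not pass. The 5 endothelial markers summed to 232.4 to 285.7 with COUP-TFII siRNA and 199.1 to 207.6 with control siRNA, mostly PECAM1, and none passed. For ACTB, whose 3′ over 5′ control probe ratio reflects RNA integrity, that ratio was 1.42 and 1.46 in the COUP-TFII siRNA arrays, against 1.52 and 1.83 in the control siRNA arrays. The ratio for GAPDH was 0.994 and 0.986 in the COUP-TFII siRNA arrays, against 0.957 and 0.986 in the control siRNA arrays. The part of these markers and of RNA quality in the differences between the groups was not tested.

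With COUP-TFII siRNA the DICER1 transcript fell to 42.8% of its control siRNA mean, AGO1 and AGO4 rose to 191% and 168% of theirs, XPO5 rose to 126%, and the 5 other measured genes did not pass the test. Differences were tested with limma on log2(intensity + 16) over all genes, with 1 probe set per gene and a Benjamini-Hochberg adjusted p under 0.05 called as passed. Of the 9 genes, 3 passed as higher and 1 as lower. Over all 19775 genes 23.0% passed, 12.7% as higher and 10.3% as lower. All 9 genes had a higher group mean of at least 32, as did 13231 of the 19775, so the shares compare genes of unlike brightness. With dim features left out, 3178 of 12768 genes passed as higher and 2454 as lower. The groups did not overlap for 7 of the 9 genes, which compares with 57.5% of all genes. The median log2 fold change of the 9 genes was −0.01, against 0.01 over all genes. In these bulk extracts fewer cells with a transcript and less of it per cell cannot be told apart.

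**Figure D1:**
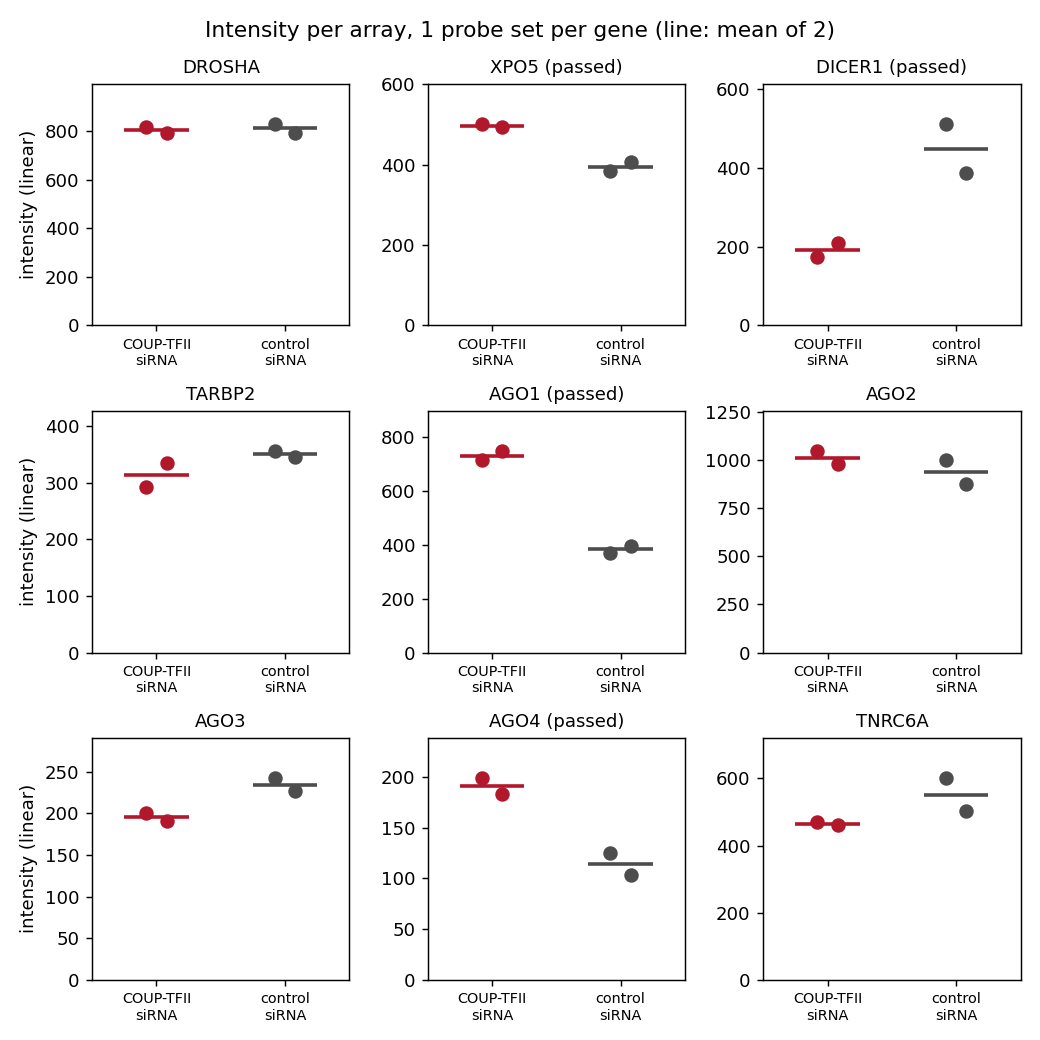
Intensity on a linear scale (vertical axis, from 0) in each of the 4 arrays for the probe set that represents each of the 9 measured genes, with points for arrays and lines for group means. DICER1 sits at 174.2 and 209.7 with COUP-TFII siRNA, below both control siRNA arrays, AGO1 and AGO4 sit above theirs, and the groups of DROSHA and AGO2 overlap.

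DICER1, the cytoplasmic RNase III enzyme that produces mature microRNAs, had an intensity of 174.2 and 209.7 in the COUP-TFII siRNA arrays, against 510.7 and 385.7 in the control siRNA arrays. Both COUP-TFII siRNA arrays were low and the groups were far apart, although the control siRNA arrays differed from each other more than the COUP-TFII siRNA arrays did. The mean was 191.9 ± 25.1 with COUP-TFII siRNA and 448.2 ± 88.3 with control siRNA (SD, n = 2 each). The log2 fold change was −1.15 ± 0.14 (SE; limma adjusted p = 0.000467), with a 95% confidence interval from −1.47 to −0.83. Among all genes it stood at the 1.24th percentile of log2 fold changes. With any single array left out it lay between −1.35 and −0.96 and DICER1 still passed, with limma adjusted p-values from 0.0107 to 0.0401.

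DICER1 has 6 single-gene probe sets, and 2 of them passed as lower when all probe sets were tested together. That fit called 12.2% of all probe sets, 6.51% as higher and 5.67% as lower. The other probe set that passed had 69.5 and 70.7 in the COUP-TFII siRNA arrays, against 159.1 and 163.9 in the control siRNA arrays. Its log2 change of −1.04 ± 0.13 (SE; limma, adjusted p = 0.00211 over all probe sets) was close to the −1.15 of the probe set that represents the gene. The next had 73.6 and 62.3 in the COUP-TFII siRNA arrays, against 93.3 and 83.7 in the control siRNA arrays, a log2 change of −0.32 ± 0.16 (SE; limma, adjusted p = 0.301). The remaining 3 probe sets were dim, with no value above 24.3 in any array, and had log2 changes from −0.37 to 0.47. Averaging all 6, dim ones included, gave −0.38 and a limma adjusted p of 0.102, so that DICER1 no longer passed.

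TARBP2, the double-stranded RNA-binding partner of DICER1, had 292.0 and 335.3 in the COUP-TFII siRNA arrays, against 356.0 and 345.3 in the control siRNA arrays. Both COUP-TFII siRNA values were below both control siRNA values, by less than the spread of the COUP-TFII siRNA arrays. The log2 change of −0.16 ± 0.10 (SE; limma, adjusted p = 0.321) did not pass, and its 95% confidence interval ran from −0.38 to 0.06. A dimmer TARBP2 probe set had 34.8 and 21.6 in the COUP-TFII siRNA arrays, against 45.4 and 51.9 in the control siRNA arrays, again without overlap and without passing (limma, adjusted p = 0.209 over all probe sets). PRKRA, also called PACT and the other double-stranded RNA-binding partner of DICER1, rose. It had 1171 and 1144 in the COUP-TFII siRNA arrays, against 785.7 and 779.6 in the control siRNA arrays, a log2 change of 0.56 ± 0.06 (SE; limma, adjusted p = 0.000232). In the fit over all probe sets, 1 of the 2 for PRKRA passed.

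DROSHA, the nuclear RNase III enzyme, had nearly the same intensity in every array. It had 815.8 and 792.7 in the COUP-TFII siRNA arrays, against 829.4 and 793.6 in the control siRNA arrays. The groups overlapped, and the log2 change of −0.01 ± 0.07 (SE; limma, adjusted p = 0.931) had a 95% confidence interval from −0.16 to 0.14. Within each array, log2 DICER1 minus log2 DROSHA was −2.13 and −1.84 with COUP-TFII siRNA, against −0.68 and −1.01 with control siRNA. The groups did not overlap in this difference, which shifted by −1.14. That shift restates the log2 changes of the 2 genes, of which DICER1 passed and DROSHA did not, and is no further support. An exact two-sided permutation test of 2 arrays against 2 cannot give a p below 0.333, which is the value it gave.

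XPO5, the export factor for hairpin precursors, had 501.6 and 493.4 in the COUP-TFII siRNA arrays, against 383.6 and 406.0 in the control siRNA arrays. Both COUP-TFII siRNA values were above both control siRNA values, and the log2 change was 0.32 ± 0.08 (SE; limma, adjusted p = 0.0173). The second of its 3 probe sets had 162.6 and 147.9 in the COUP-TFII siRNA arrays, against 111.5 and 115.5 in the control siRNA arrays, a log2 change of 0.40 ± 0.12 (SE; limma, adjusted p = 0.0751 over all probe sets). The remaining probe set overlapped between the groups. XPO5 lost its call with any single array left out (limma adjusted p = 0.0852 to 0.14).

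AGO1 and AGO4 rose. AGO1 had 713.9 and 748.5 in the COUP-TFII siRNA arrays, against 371.4 and 394.9 in the control siRNA arrays. The groups were separated by far more than either pair of replicates. The mean was 731.2 ± 24.4 with COUP-TFII siRNA and 383.1 ± 16.6 with control siRNA (SD, n = 2 each), and the log2 change was 0.90 ± 0.08 (SE; limma, adjusted p = 5.22e-05), at the 98.7th percentile of all genes. With any single array left out it stayed between 0.86 and 0.95 and passed (limma adjusted p = 0.00808 to 0.0116). Of its 4 probe sets, the representative was the single one to pass in the fit over all probe sets. The second had 187.0 and 213.4 in the COUP-TFII siRNA arrays, against 213.3 and 152.4 in the control siRNA arrays, and overlapped. Another was discordant between replicates, at 31.9 and 113.5 with COUP-TFII siRNA, against 64.8 and 66.5 with control siRNA. The dimmest had 38.0 and 24.9 with COUP-TFII siRNA, against 13.8 and 12.7 with control siRNA, without overlap. Averaging all 4 gave a log2 change of 0.42 (limma adjusted p = 0.0734), which did not pass.

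AGO4 had 198.7 and 183.6 in the COUP-TFII siRNA arrays, against 125.0 and 103.1 in the control siRNA arrays. Both COUP-TFII siRNA values were higher than both control siRNA values, with a log2 change of 0.68 ± 0.14 (SE; limma, adjusted p = 0.00709). A dim probe set had 40.7 and 41.7 with COUP-TFII siRNA, against 27.7 and 31.7 with control siRNA. A dimmer one had 21.0 and 19.7 with COUP-TFII siRNA, against 12.9 and 11.0 with control siRNA, and the last overlapped near the floor. None of these 3 passed. Without control siRNA replicate 1 AGO4 still passed (limma adjusted p = 0.0385). Without any of the 3 other arrays it did not, with limma adjusted p-values from 0.077 to 0.11, and averaging its probe sets gave a log2 change of 0.33 and a limma adjusted p of 0.199.

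AGO3 had lower deposited values with COUP-TFII siRNA but did not pass. It had 201.0 and 191.1 in the COUP-TFII siRNA arrays, against 242.2 and 227.1 in the control siRNA arrays, without overlap. The log2 change was −0.24 ± 0.11 (SE; limma, adjusted p = 0.154), with a 95% confidence interval from −0.48 to 0.00039. An alternative scaling centred every array on its housekeeping gene median, which adds the same amount to the log2 change of every gene. It moved the median of all genes to 0.39 and AGO3 to 0.13. TARBP2, DROSHA and TNRC6A were positive as well, while XPO5 and AGO4 were 0.70 and 1.05. The second AGO3 probe set had 47.8 and 40.0 with COUP-TFII siRNA, against 89.2 and 69.8 with control siRNA, a log2 change of −0.67 ± 0.19 (SE; limma, adjusted p = 0.0726 over all probe sets). Another had 31.7 and 45.3 with COUP-TFII siRNA, against 62.7 and 70.5 with control siRNA, a log2 change of −0.61 ± 0.21 (SE; limma, adjusted p = 0.122 over all probe sets). On both, the COUP-TFII siRNA values were below the control siRNA values, while the dimmest of the 4 probe sets overlapped.

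Within each array, log2 AGO1 minus log2 AGO3 was 1.75 and 1.88 with COUP-TFII siRNA, against 0.59 and 0.76 with control siRNA, a shift of 1.15. Log2 AGO4 minus log2 AGO3 was −0.02 and −0.05 with COUP-TFII siRNA, against −0.87 and −1.03 with control siRNA, a shift of 0.92. Each pair sets a gene that passed against AGO3, which did not. Each shift is the difference of log2 changes already given, so it is no further support for them. In neither pair of genes did the groups overlap. The exact two-sided permutation p was 0.333 for both, the smallest that this design allows, and 0.333 after adjustment over the 3 gene pairs compared in this way.

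AGO2, the cleaving Argonaute, had 1047 and 977.9 in the COUP-TFII siRNA arrays, against 999.0 and 874.5 in the control siRNA arrays. The groups overlapped. The log2 change of 0.11 ± 0.08 (SE; limma, adjusted p = 0.378) did not pass, and its 95% confidence interval ran from −0.06 to 0.29.

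TNRC6A, also called GW182, the scaffold that links Argonautes to deadenylases, gave values of both signs. On the probe set that represents it, it had 469.7 and 461.7 in the COUP-TFII siRNA arrays, against 600.5 and 501.8 in the control siRNA arrays, a log2 change of −0.23 ± 0.09 (SE; limma, adjusted p = 0.127). A second had 361.2 and 318.0 with COUP-TFII siRNA, against 373.7 and 360.8 with control siRNA, and overlapped. A further one had 345.3 and 379.8 with COUP-TFII siRNA, against 318.1 and 273.5 with control siRNA, so that both COUP-TFII siRNA values were above both control siRNA values, with a log2 change of 0.28 ± 0.10 (SE; limma, adjusted p = 0.135 over all probe sets). None of its 6 probe sets passed, and 3 had means under 32. With genes of low mean intensity left out, the representative passed as lower (limma adjusted p = 0.0466), while averaging all 6 gave a log2 change of 0.021. No direction can be given for this gene.

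**Figure D2:**
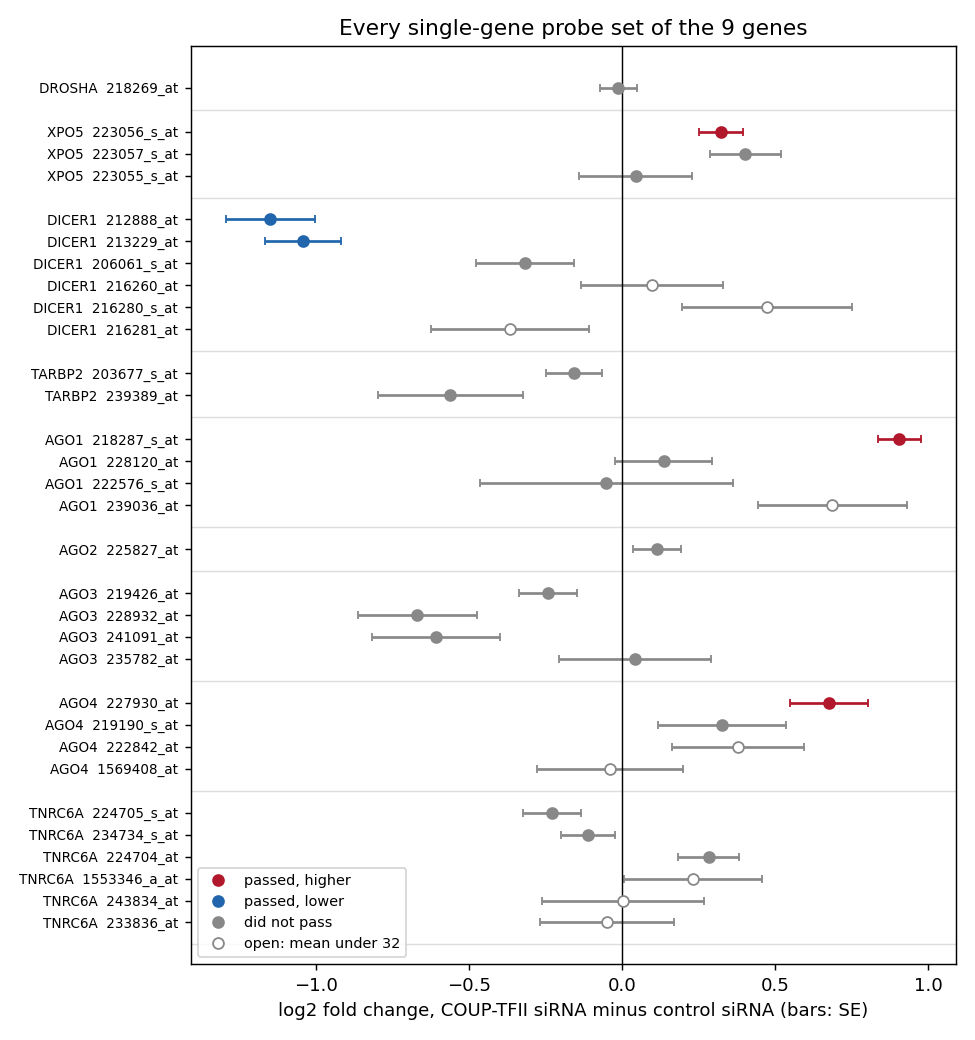
Log2 fold change, COUP-TFII siRNA minus control siRNA (horizontal axis, bars are SE), for each of the 31 single-gene probe sets, with open symbols for means under 32. The 2 probe sets that passed as lower belong to DICER1, and the 3 that passed as higher belong to XPO5, AGO1 and AGO4. The other probe sets of DICER1, AGO1 and AGO4 lie nearer 0, and 1 of the others of XPO5 lies farther from it.

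Across the 31 probe sets, 3 passed as higher, 2 as lower and 26 did not pass. Of all probe sets 12.2% passed, 6.51% as higher and 5.67% as lower. The groups did not overlap on 19 of the 31, or 61.3%, 9 with COUP-TFII siRNA above and 10 with it below, next to 50.4% of all probe sets. Of the 22 probe sets with a mean of at least 32, 10 had a positive and 12 a negative log2 change. The shares of separated probe sets were thus not far from the background.

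**Figure D3:**
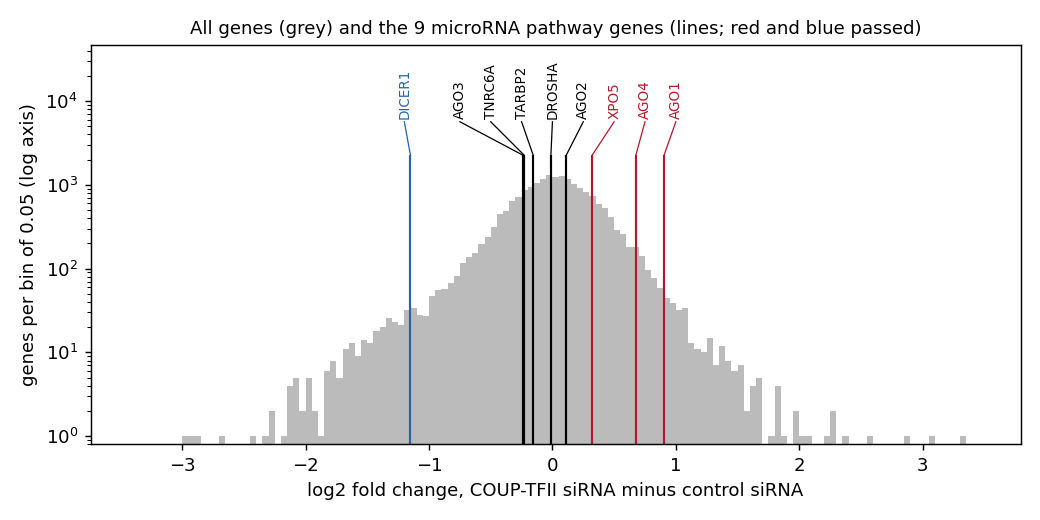
Number of genes (log axis) per bin of 0.05 in log2 fold change, COUP-TFII siRNA minus control siRNA, for all 19775 genes, with lines at the 9 measured genes. DICER1 at −1.15 lies in the lower tail, AGO1 at 0.90 and AGO4 at 0.68 in the upper tail, and DROSHA at −0.01 in the middle.

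AGO4, AGO1 and AGO3 lie in this order on human chromosome 1 with no other protein-coding gene between them in RefSeq's annotation of GRCh38.p14, whereas AGO2 lies on another chromosome. The 3 neighbours are shown together because 2 of them rose and AGO3 did not, and DICER1 is shown as the gene with the largest change among the 9. Each sequence is the 250 bases before a start site in RefSeq's promoter table (GRCh38.p14), written 5′ to 3′ on the gene's strand, with CG dinucleotides in capitals. DICER1 is at chr14:95158011-95158260 on the minus strand (the outermost of 5 listed starts), AGO4 at chr1:35807766-35808015, AGO1 at chr1:35882959-35883208 and AGO3 at chr1:35930855-35931104, all 3 on the plus strand.
DICER1: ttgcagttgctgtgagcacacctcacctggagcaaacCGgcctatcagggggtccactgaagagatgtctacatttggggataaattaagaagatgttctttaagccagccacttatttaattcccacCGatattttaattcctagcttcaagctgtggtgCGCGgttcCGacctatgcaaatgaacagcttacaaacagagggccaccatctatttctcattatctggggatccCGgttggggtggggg
AGO4: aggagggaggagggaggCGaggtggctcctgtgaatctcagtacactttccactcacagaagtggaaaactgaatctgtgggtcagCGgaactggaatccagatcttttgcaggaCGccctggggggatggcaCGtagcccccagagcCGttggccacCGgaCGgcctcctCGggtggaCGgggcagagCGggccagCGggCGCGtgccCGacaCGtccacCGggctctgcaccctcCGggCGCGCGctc
AGO1: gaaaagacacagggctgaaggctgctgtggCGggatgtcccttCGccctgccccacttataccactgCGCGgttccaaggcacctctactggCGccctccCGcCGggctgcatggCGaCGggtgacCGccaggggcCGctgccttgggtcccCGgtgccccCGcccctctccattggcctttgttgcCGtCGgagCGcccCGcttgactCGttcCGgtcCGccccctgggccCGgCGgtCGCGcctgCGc
AGO3: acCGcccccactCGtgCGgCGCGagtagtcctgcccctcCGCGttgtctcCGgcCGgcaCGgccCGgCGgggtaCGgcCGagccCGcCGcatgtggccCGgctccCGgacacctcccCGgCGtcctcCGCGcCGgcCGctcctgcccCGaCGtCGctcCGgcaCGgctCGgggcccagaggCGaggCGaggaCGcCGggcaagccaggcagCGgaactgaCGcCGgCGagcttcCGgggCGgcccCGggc
The DICER1 stretch held 6 CG dinucleotides and a GC content of 48.0%. Another listed DICER1 start, with its upstream bases at chr14:95157530-95157779, had 30 CG dinucleotides and 74.0% GC. AGO4 held 20 (66.4% GC), AGO1 25 (71.6% GC) and AGO3 41 (80.0% GC), beside a median of 11 and 58.0% over the 35116 upstream stretches in the table. The 3 Argonaute stretches were all above that median in both measures, and AGO3, which did not pass, was the highest of them.

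Nuclear receptors of the COUP-TF kind are known to bind repeats of AGGTCA. On both strands, AGGTCA alone occurred in 12.1% of the 35116 stretches, and a direct repeat of it with 1 base between the copies, which contains AGGTCA, in 0.0171%. The E-box CACGTG occurred in 6.34%, and the E2F-type elements TTTGGCGC and TTTCCCGC in 0.55% and 1.39%. None of these letters was found in the printed stretches or in the other listed starts of DICER1. Of the 9 genes other than AGO2, whose promoter was not searched, TNRC6A had the single match, an AGGTCA. A missing match says only that these letters are not in this window.

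The wider pathway was read from 6 gene lists. Of 98 genes, 90 were measured, of which 18 passed as higher and 14 as lower, or 35.6% against 23.0% of all genes, with a median log2 change of 0.03. Of the 90, 81 had a higher group mean of at least 32, against 13231 of all 19775. These shares thus compare genes of unlike brightness. With dim features left out, the lists had 22 higher and 17 lower, and the 12768 genes kept had 3178 and 2454. Among 14 measured cofactors of the DROSHA step, 2 rose, 3 fell and 9 did not pass (35.7% passed, median −0.01). KHSRP, a KH-domain protein that binds and promotes processing of a subset of precursors, let-7 among them, had 926.8 and 869.5 in the COUP-TFII siRNA arrays, against 2036 and 2090.4 in the control siRNA arrays. It fell by 1.19 ± 0.06 (SE, log2 scale; limma adjusted p = 3.91e-06), passed on 2 of its 4 probe sets and passed under all 18 alternative settings. DDX5, an RNA helicase of the DROSHA complex, had 561.7 and 565.2 in the COUP-TFII siRNA arrays, against 309.7 and 257.6 in the control siRNA arrays, a rise of 0.96 ± 0.10 (SE, log2 scale; limma adjusted p = 0.000181) that also passed under all 18. DDX5 and KHSRP stood at opposite ends of this list.

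The cap-binding subunit gene NCBP2 rose, with a log2 change of 0.29 ± 0.07 (SE). ERH, which binds DGCR8, and SRSF3, which recognises a primary-transcript motif, fell by less, with log2 changes of −0.21 ± 0.05 and −0.19 ± 0.05 (SE). With housekeeping-median centring, which adds the same amount to every gene's log2 change, ERH turned to 0.17 and SRSF3 to 0.19. NCBP2, ERH and SRSF3 lost their calls in 3 or all 4 of the fits that leave out 1 array.

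Of 11 measured genes that export, bind or tail the precursors, 2 rose, 1 fell and 8 did not pass (median 0.24). That is 27.3% passed, against 23.0% of all genes. Besides PRKRA, TUT4, a terminal uridylyltransferase known for tailing pre-let-7, had 451.3 and 422.6 in the COUP-TFII siRNA arrays, against 351.8 and 336.7 in the control siRNA arrays. Its log2 change of 0.33 ± 0.08 (SE; limma, adjusted p = 0.0212) was no longer called in any of the 4 fits that leave out 1 array. RAN, the GTPase that exportin-5 needs, had 7307 and 7559 in the COUP-TFII siRNA arrays, against 8946 and 9229.9 in the control siRNA arrays. Its log2 change of −0.29 ± 0.04 (SE; limma, adjusted p = 0.00129) turned to 0.085 with housekeeping-median centring and lost its call without control siRNA replicate 2 (limma adjusted p = 0.0747). Both RAN probe sets passed as lower in the fit over all probe sets, and averaging the 2 gave −0.43 (limma adjusted p = 0.000729). RAN and XPO5, which act together in export, thus had values on different sides of 0 in the main setting.

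Of 8 measured genes for Argonaute loading and turnover, 4 fell, 2 rose and 2 did not pass (median −0.10). Those that fell were FKBP4, PTGES3, HSP90AB1 and HSP90AA1. FKBP4, a co-chaperone of HSP90, had 326.3 and 367.0 in the COUP-TFII siRNA arrays, against 662.2 and 677.8 in the control siRNA arrays, a log2 change of −0.92 ± 0.08 (SE; limma, adjusted p = 8.23e-05) that passed under all 18 alternatives. PTGES3, the co-chaperone p23, and the HSP90 genes HSP90AB1 and HSP90AA1 were lower by much less, at −0.23, −0.18 and −0.16 on the log2 scale, and turned to 0.14, 0.20 and 0.21 with housekeeping-median centring. PTGES3 lost its call in 2, HSP90AB1 in 3 and HSP90AA1 in all 4 of the fits that leave out 1 array, and none of the 3 HSP90AB1 probe sets passed in the fit over all probe sets. HSP90AA1 was named after its values were seen. DNAJA2, a J-domain co-chaperone, and ZSWIM8, a ubiquitin ligase adaptor for Argonaute turnover, rose by 0.32 and 0.27 on the log2 scale. DNAJA2 lost its call in 3 and ZSWIM8 in all 4 of the fits that leave out 1 array, and ZSWIM8 was −0.15 when its 2 probe sets were averaged.

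Of 29 silencing effectors, 5 rose, 1 fell and 23 did not pass (median 0.01). That is 20.7% passed, not above the 23.0% of all genes, although 28 of the 29 had a higher group mean of at least 32. DCP2, the decapping enzyme, had 274.5 and 259.4 in the COUP-TFII siRNA arrays, against 687.8 and 563.5 in the control siRNA arrays, a log2 change of −1.17 ± 0.10 (SE; limma, adjusted p = 7.34e-05). It passed under all 18 alternatives, with −0.42 where its 4 probe sets were averaged, and 2 of the 4 passed in the fit over all probe sets. WTIP, a LIM protein of processing bodies, had 166.0 and 178.9 in the COUP-TFII siRNA arrays, against 72.6 and 72.6 in the control siRNA arrays, a log2 change of 1.09 ± 0.14 (SE; limma, adjusted p = 0.000554) on its only probe set. PAN2, a deadenylase subunit, and DDX6, a helicase of processing bodies, were higher by 0.55 ± 0.13 and 0.30 ± 0.07 (SE, log2 scale). AJUBA and LSM14A, at 0.23 and 0.19, were named after their values were seen. None of the 4 AJUBA or 3 LSM14A probe sets passed in the fit over all probe sets. With probe sets averaged, neither gene passed. PAN2, DDX6, AJUBA and LSM14A lost their calls in 3 or all 4 of the fits that leave out 1 array. The paralogues TNRC6B and TNRC6C, at −0.20 and −0.36 on the log2 scale, were among the genes that did not pass. PIWI proteins, the germline relatives of Argonautes, had 3 measured genes, all at or below an intensity of 36.0 in every array, and none passed.

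**Figure D4:**
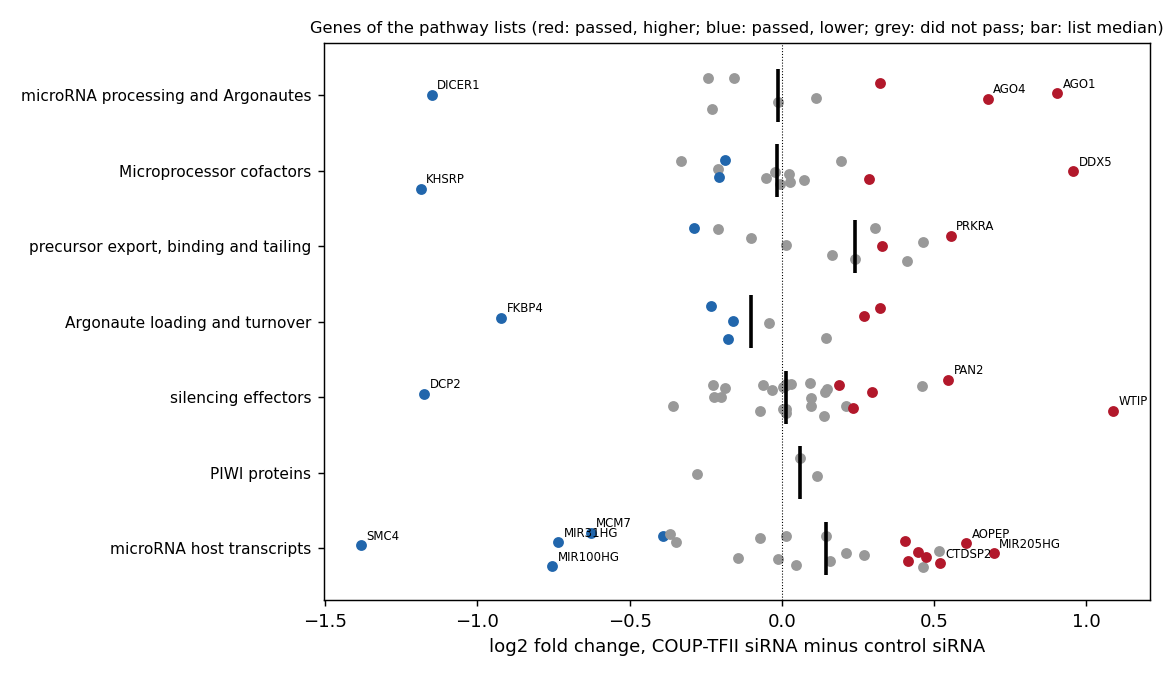
Log2 fold change, COUP-TFII siRNA minus control siRNA (horizontal axis), of each measured gene in the 7 lists, 1 point per gene, with black bars at the list medians. Each list has members on both sides of 0, and KHSRP, FKBP4, DCP2 and SMC4 stand as low as DICER1 or nearly so.

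Transcripts that carry microRNA hairpins also moved in both directions. Of 25 measured host transcripts, 7 passed as higher, 5 as lower and 13 did not pass (48.0% passed, median 0.15). Over all genes 23.0% passed, but 23 of the 25 had a higher group mean of at least 32, against 13231 of all 19775. The array measures the host transcript, and no mature microRNA was measured. The mature sequences are shown for hosts whose microRNAs share a seed, the bases 2 to 8 in capitals that pair with targets, and for the host that carries a let-7 hairpin. They are from RefSeq's microRNA table (GRCh38.p14), where each lies inside its host gene on the same strand.
miR-15b-5p in SMC4: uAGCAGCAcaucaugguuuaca
miR-16-5p in SMC4: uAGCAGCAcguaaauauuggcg
miR-106b-5p in MCM7: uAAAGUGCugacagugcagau
miR-93-5p in MCM7: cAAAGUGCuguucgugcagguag
miR-26b-5p in CTDSP1: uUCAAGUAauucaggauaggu
miR-26a-5p in CTDSP2: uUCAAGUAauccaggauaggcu
let-7a-5p in MIR100HG: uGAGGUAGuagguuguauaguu
miR-100-5p in MIR100HG: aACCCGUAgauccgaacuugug
miR-125b-5p in MIR100HG: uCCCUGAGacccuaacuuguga
The SMC4 pair lies at chr3:160404607-160404628 and chr3:160404754-160404775 on the plus strand. The MCM7 pair lies at chr7:100094043-100094063 and chr7:100093815-100093837 on the minus strand. Of the miR-26 pair, miR-26b-5p is at chr2:218402657-218402677 (plus strand) and miR-26a-5p at chr12:57824658-57824679 (minus strand). The MIR100HG set lies on the minus strand at chr11:122146568-122146589, chr11:122152275-122152296 and chr11:122099809-122099830, in the order shown.

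SMC4, a condensin subunit gene, had 712.4 and 696.7 in the COUP-TFII siRNA arrays, against 2021 and 1714 in the control siRNA arrays. It had the largest fall of the 90 genes, with a log2 change of −1.38 ± 0.08 (SE; limma, adjusted p = 7.63e-06), and passed under all 18 alternatives. MCM7, a helicase subunit of DNA replication whose intron carries the miR-106b cluster, had 366.2 and 439.0 in the COUP-TFII siRNA arrays, against 618.6 and 638.7 in the control siRNA arrays. Its log2 change was −0.63 ± 0.10 (SE; limma, adjusted p = 0.00148), and it lost its call without control siRNA replicate 2 (limma adjusted p = 0.059) and with housekeeping-median centring, where it was −0.25 (limma adjusted p = 0.0682). MIR100HG, a long non-coding host, had 620.0 and 599.3 in the COUP-TFII siRNA arrays, against 1041 and 1036.6 in the control siRNA arrays. Its log2 change was −0.75 ± 0.06 (SE; limma, adjusted p = 5.46e-05), or −0.35 and a limma adjusted p of 0.204 when its 2 probe sets were averaged. All 3 hosts were lower in both COUP-TFII siRNA arrays than in either control siRNA array. The same mature let-7a-5p is made from 3 loci and miR-16-5p from 2, so a host's level does not give the microRNA's level. DLEU2, the second miR-16 host, had 43.6 and 46.6 in the COUP-TFII siRNA arrays, against 59.6 and 44.3 in the control siRNA arrays, overlapped and did not pass.

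The hosts of the shared UCAAGUA seed moved in opposite directions. CTDSP2, which carries miR-26a, had 2168 and 2092 in the COUP-TFII siRNA arrays, against 1580 and 1390.1 in the control siRNA arrays, a log2 change of 0.52 ± 0.07 (SE; limma, adjusted p = 0.00068). CTDSP1, which carries miR-26b, had 519.6 and 464.8 in the COUP-TFII siRNA arrays, against 647.3 and 652.2 in the control siRNA arrays. Its log2 change of −0.39 ± 0.08 (SE; limma, adjusted p = 0.00705) was −0.02 with housekeeping-median centring and kept its call in 1 of the 4 fits that leave out 1 array. CTDSPL, a further relative and host of a miR-26a hairpin, had 308.9 and 304.9 in the COUP-TFII siRNA arrays, against 308.0 and 339.2 in the control siRNA arrays, and did not pass. MCM7, CTDSP1, DLEU2 and CTDSPL were chosen for the text with their values in view.

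MIR31HG, a non-coding host of miR-31, had 96.0 and 98.9 in the COUP-TFII siRNA arrays, against 169.8 and 175.9 in the control siRNA arrays. Its log2 change was −0.74 ± 0.13 (SE; limma, adjusted p = 0.0034), and it did not pass without either control siRNA array. MIR205HG, the host of miR-205, and AOPEP, whose gene carries the miR-23b cluster, rose by 0.70 ± 0.17 and 0.61 ± 0.10 (SE, log2 scale). MIR205HG had 114.5 and 131.1 in the COUP-TFII siRNA arrays, against 78.1 and 61.7 in the control siRNA arrays, and lost its call in all 4 of the fits that leave out 1 array. AOPEP had 471.9 and 463.0 in the COUP-TFII siRNA arrays, against 275.1 and 330.5 in the control siRNA arrays, and lost its call without either COUP-TFII siRNA array. The AOPEP call was also lost with averaged probe sets and with 1 prior variance. In the fit over all probe sets, 2 of its 4 passed as higher.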

How the data were processed

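Total RNA was biotin-labelled with a 3′ IVT kit for 1-colour Affymetrix arrays, according to the labels' protocols. The authors deposited 54675 probe set intensities per array, linear in scale (0.61 to 15890). How these were background-corrected or normalized is not given in the sources used here, no detection calls came with the values, and 1088 to 1184 values per array equal 1, as from a floor. Array medians differed by at most 3.66%, and no further scaling was applied. The number of arrays limits the precision.

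Symbols came from the platform table, updated through Entrez identifiers in RefSeq's gene table (41037 of 41091 single-gene probe sets matched). A gene was read from the one of its single-gene probe sets whose mean across the 4 arrays was highest, _x_at sets only where no other existed. The 62 control probe sets were left out. Fold changes are on the log2(intensity + 16) scale, on which changes of dim genes come out too small. The test was that of limma 3.58.1 under R 4.3.3 (intensity trend, 2 residual and 8.78 total degrees of freedom), without a replicate block, with adjusted p-values over all genes or over all probe sets. On data simulated for this comparison with 19775 genes, 41.0%, 84.0% and 100% of 200 changes of 0.5, 1 and 2 on the log2 scale were recovered. False calls numbered 8, 8 and 17. The simulation changed 200 genes while 4558 passed in the data, so these shares need not hold for the data. Figures used matplotlib 3.10.9.

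The members and lists were chosen with earlier results of these data known. Named genes were all members, plus from each pathway list up to 3 rises and 3 falls with the largest change among those that passed. The labels do not say whether replicate numbers pair the arrays. Replicate differences of the 2 groups correlated at 0.02 across genes, which cannot decide it, since noise in single arrays lowers this correlation too. Alternatives covered the block, quantile normalization, median scaling and housekeeping-median centring, pseudocounts of 1 and 64, features with a mean under 32, the prior variance, thresholds, probe set choice and leaving out 1 array at a time. Housekeeping-mean centring was chosen after seeing the data.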

Additional observations from a re-analysis of the deposited data

How the results depend on the processing

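DICER1 was lower, and AGO1, AGO4 and XPO5 higher, under all 18 alternatives, but their calls depended on the probe sets and the estimate of the spread. As reported, 3 members were higher and 1 lower. The counts were 5 higher with housekeeping-median centring, 1 higher with 1 prior variance, 0 higher and 0 lower with averaged probe sets, 1 to 2 higher with an array left out (2 without control siRNA replicate 1 alone), and 2 lower with dim features left out. The share called over all probe sets, 12.2% as reported, is not given here for the alternatives. Of the member probe sets, 3 were higher and 2 lower. These became 13 higher with that centring, 5 higher and 4 lower without dim features, 0 higher and 1 lower with 1 prior variance, 4 lower with a robust prior, 1 higher at a threshold of 0.01, and 1 higher with 0 to 1 lower with an array left out. Over the pathway lists the 18 higher and 14 lower became 64 and 6 with that centring, 3 and 6 with 1 prior variance, 4 and 7 with at least 1.5-fold, 8 higher at 0.01, 9 higher with averaged probe sets, and 5 to 9 higher and 5 to 12 lower with an array left out. All genes gave 2519 higher and 2039 lower, then 8845 and 751 with that centring, 754 and 814 with 1 prior variance, 1450 and 1318 at 0.01, 914 and 909 with at least 1.5-fold, 1631 higher with averaged probe sets, and 882 to 1222 higher and 886 to 1370 lower with an array left out.

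Housekeeping-median centring added the same amount to the log2 fold change of every gene. The 16 measured housekeeping genes had a median log2 change of −0.05 in the main setting, where 2 passed as higher and 3 as lower. Their median intensity fell between HPRT1 and EMC7 in the control siRNA arrays. In the COUP-TFII siRNA arrays it fell between EMC7 and VCP. HPRT1 and EMC7 were among the 3 that passed as lower, with log2 changes of −0.77 and −0.57. That centring moved the median of all genes to 0.39 and the share of higher calls to 92.2%, against 55.3% as reported. It turned the log2 fold change of DROSHA to 0.36, TARBP2 to 0.22, AGO3 to 0.13, TNRC6A to 0.14, ERH to 0.17, SRSF3 to 0.19, RAN to 0.085, PTGES3 to 0.14, HSP90AB1 to 0.20 and HSP90AA1 to 0.21. MCM7 was −0.25, FKBP4 −0.55, MIR100HG −0.38, MIR31HG −0.36, CTDSP2 0.89 and PRKRA 0.93. Relative to the new median, the turned values were −0.03, −0.17, −0.26, −0.24, −0.22, −0.20, −0.30, −0.25, −0.19 and −0.18, while DICER1 was −1.17 and AGO1 0.89. Housekeeping-mean centring gave 0.026 for DROSHA and left the member counts as reported. DROSHA lay between −0.044 and 0.019 with an array left out, and the share of higher calls between 41.2% and 54.9%. Averaged probe sets gave 0.021 for TNRC6A and −0.15 for ZSWIM8. With 1 prior variance AGO4, MCM7 and CTDSP2 were among those that lost their calls (limma adjusted p = 0.0562, 0.0618 and 0.0679). Why HPRT1 and EMC7 were lower, and what lay behind the other shifts, was not tested. With a replicate block the member counts were the same, 3 higher and 1 lower, and all genes gave 2849 higher and 2277 lower. Among 37 named genes, 518 of their values under alternatives kept direction and call, 131 lost the call, 2 gained it and 15 turned. No detection calls came with the values, so probe sets near the floor carry little information.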
